A study of Solanum lycopersicum with 86 samples.

Results

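The FT and TFL1 family of tomato (Solanum lycopersicum) was followed by 7 gene identifiers, taken as given: SP (Solyc06g074350), SFT (Solyc03g063100), SP5G (Solyc05g053850), SP5G2 (Solyc11g008640), SP5G3 (Solyc11g008650), SP6A (Solyc05g055660) and SP9D (Solyc09g009560). Of these, 4 were among the 23050 genes listed: SP, SP9D, SFT and SP5G3. SP5G, SP5G2 and SP6A were not analysed here. The identifiers were fixed by gene family and not by a cut on measured values, but with earlier results of these data known. Light, cultivar, clock time and tissue were all compared.

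The family encodes small mobile proteins that set when and where a plant flowers. FT-like florigens are made in leaf veins, travel in the phloem to shoot tips and promote flowering together with bZIP partners. TFL1-like antiflorigens compete for the same partners and keep meristems vegetative. In tomato, SFT (SINGLE FLOWER TRUSS) is the florigen and SP (SELF PRUNING) the best known antiflorigen. SP9D is a TFL1-like relative of SP, and SP5G3 an FT-like relative of SP5G, a gene known in tomato as a repressor of flowering. Plants with a mutated sp allele stop growing after a few inflorescences, and such determinate plants underlie field tomatoes. As background, M82 is a determinate cultivar that carries the mutated allele, and Moneymaker is indeterminate. Gene counts do not tell the alleles apart.

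Poly(A) RNA was sequenced from 86 libraries of the first internode, the stem between cotyledons and first leaf, or of its pith, the innermost tissue. Seedlings of both cultivars, with no transgene named, had grown in white light (WL) at 20 °C under 16 h light and 8 h dark. They then stayed in WL of 200 PAR (photosynthetically active radiation) or received the same WL with added far-red (FR). The added FR lowered the red to far-red ratio to 0.21. Internodes were taken 6, 24, 30 and 48 h after the treatments started, and pith at 30 and 48 h, so 24 and 48 h share the clock time of the start and 6 and 30 h lie 6 h later in the day. Moneymaker gave 19 FR and 13 WL internode libraries and 8 FR and 6 WL pith libraries. M82 gave 11 FR and 15 WL internode libraries and 5 FR and 9 WL pith libraries. The 24 groups of cultivar, tissue, light and time held 2 to 6 libraries each, which the labels call biological replicates. One of the labels' fields marks all 19 Moneymaker WL libraries as FR; titles and sample codes mark them as WL, and these were followed.

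Library depth ran from 0.769 to 22.1 M reads (M, 1000000), with a median of 2.98 M. Each library was compared with the others by the 30 genes that differed most in each direction between cultivars, clock times or lights, family members left out. By this check 12 libraries stood nearer to another class than their label gave, 9 of them for cultivar, 3 for light and 1 for clock time, with 1 library counted under 2 of these. The 9 were 6 WL libraries labelled M82 and 3 libraries labelled Moneymaker. Of the 12, 8 were internode and 4 pith libraries, and 10 were WL libraries. M82 WL replicate 1 was among them in internodes at 6, 24 and 30 h and in pith at 30 and 48 h. Replicate numbers mark a batch of plants, per the labels. Fits without the 12 thus leave out mostly WL libraries, which bears on every FR minus WL value given that way. Values below keep the labels, and results that rest on these libraries are also given without them.

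Every member was near the limit of detection in the stem. The deposited values are read counts divided by 1 factor per library, so that 1 read was worth less in deeper libraries. SP had a value above 0 in 52 of 86 libraries, with a mean of 1.36 against a median of 13.5 over the means of all listed genes. SP9D had a value in 49 libraries with a mean of 0.696, SFT in 20 with a mean of 0.116 and SP5G3 in 16 with a mean of 0.0907. By its mean, SP stood at percentile 20.2 of all listed genes, SP9D at 14.1, SFT at 1.50 and SP5G3 at 0.568. Levels are not compared between members, because no transcript lengths were at hand.

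In whole reads, recovered for 85 of the 86 libraries, SP had 483 reads, SP9D 240, SP5G3 40 and SFT 36. The 5 libraries richest in SP held 43.1% of its reads, and 1 library alone held 61. Detection moved with depth. SP was seen in 25% of the 20 libraries under 2 M reads, in 67.3% of the 49 between 2 and 5 M and in 82.4% of the 17 with 5 M or more. SP5G3 was seen in 0 of the 20 shallowest libraries and in 47.1% of the 17 deepest. All 4 members were seen together in 4 libraries, and 15 libraries held none of them. A 0 in a shallow library is therefore not absence of the transcript. In these bulk samples fewer expressing cells and less RNA per cell cannot be told apart.

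Far-red and SP were compared first, since added FR mimics shade from neighbours and shade changes both stem growth and flowering. SP had a lower median in FR than in WL in the internodes of both cultivars, but the difference did not pass the test across all genes in either. The estimates averaged over times were about the same, but the M82 one leaned on 24 h, with 2 libraries in each light. In Moneymaker internodes the median SP value was 0.423 in FR (0 to 3.45, n = 19) and 1.47 in WL (0 to 10.3, n = 13). In M82 internodes it was 0.186 in FR (0 to 4.23, n = 11) and 1.32 in WL (0 to 5.80, n = 15). The ranges of the lights overlapped in both cultivars, and the highest library of each was a WL library. Median depth was 3.30 M reads in FR and 3.13 M in WL for Moneymaker, and 2.96 and 3.14 M for M82.

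The libraries of each time showed how much of this lay in a few samples. At 6 h the Moneymaker WL libraries held SP at 0.898 and 2.61, and the FR libraries at 1.50, 0, 0.423, 1.78 and 0. At 24 h the WL libraries stood at 10.3, 1.67 and 0.576 and the FR libraries at 0.518, 0, 1.51, 0.682 and 0. The first of these WL libraries was the highest in the whole series, with 36 reads. At 30 h WL gave 0.461, 0, 4.53 and 7.19, and FR gave 3.45, 0 and 1.55. At 48 h WL gave 1.47, 3.30, 0.509 and 0, and FR gave 0, 0, 0.121, 1.70, 0.925 and 0.378. The groups overlapped at every time, and the mean was higher in WL at each of them. The difference was widest at 24 h, at -1.32 ± 0.64 (unadjusted p = 0.0425, adjusted p = 0.711, limma, 0.0946% called).

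In M82 internodes at 6 h, WL libraries held SP at 2.79, 0.394, 5.47 and 1.32, and FR libraries at 1.88, 0 and 4.23. At 24 h the WL libraries stood at 5.80 and 2.53 and both FR libraries at 0. This was the only time in M82 internodes at which the lights did not overlap, with 2 libraries in each (FR minus WL -2.29 ± 0.88, unadjusted p = 0.0108, adjusted p = 1.00, limma, 0% of genes called). At 30 h WL gave 1.85, 0, 1.14, 0 and 0, and FR gave 3.89, 0 and 0.780, so here the FR mean was the higher. At 48 h WL gave 0, 0.952, 1.70 and 4.26, and FR gave 0, 0.809 and 0.186. The WL libraries at 2.79, 1.32, 5.80 and 1.85 were among those nearer to Moneymaker in the label check, and one of the FR libraries at 0 at 24 h stood nearer to WL.

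**Figure D1:**
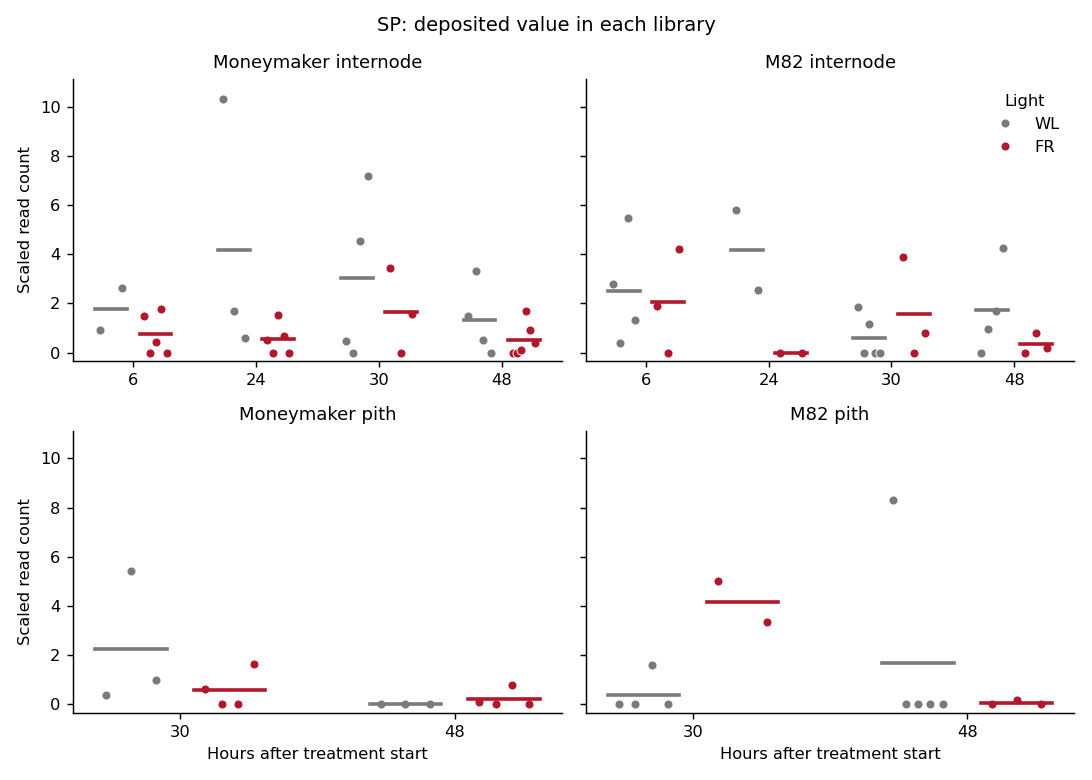
Deposited SP value, a scaled read count (vertical axis), in each library by hours after treatment start, for each cultivar and tissue; points are libraries, horizontal lines are group means, grey is WL and red is FR. In Moneymaker internodes the FR libraries reach 3.45 at most and the WL libraries 10.3, and many libraries of both lights lie at 0.

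Averaged over times with equal weight, FR minus WL for SP was -0.72 ± 0.33 (SE) on the log2(value + 1) scale in Moneymaker internodes, with an interval of -1.38 to -0.07 and an adjusted p of 0.318 in the limma fit across 19029 genes. In M82 internodes it was -0.72 ± 0.36, interval -1.44 to -0.0025, adjusted p = 0.610 in the same limma fit. SP was thus called in neither, where limma called 1.59% of all genes tested in Moneymaker internodes and 0.715% in M82 internodes at an adjusted p under 0.05. An exact permutation of the light labels within times, two-sided, gave p = 0.0459 for Moneymaker (19 against 13 libraries) and p = 0.119 for M82 (11 against 15). Without the libraries against a label these exact permutation values were 0.064 and 0.408, with differences of -0.67 and -0.54. By time, the mean log2(value + 1) of SP in M82 internodes was 0 in FR and 2.29 in WL at 24 h. At 30 h it was 1.04 in FR and 0.52 in WL, the other order. The difference between the cultivars' FR effects was -0.0028 ± 0.49, with an interval of -0.97 to 0.97, so the data could hold an unequal response of up to about that size (adjusted p = 1.00, limma). On 2 of 12 such comparisons of light, cultivar, clock time and tissue SP had an unadjusted limma p under 0.05, and these were the internode comparisons of light.

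Over both cultivars together, a comparison added after the data were seen, FR minus WL for SP in internodes was -0.72 ± 0.24 (adjusted p = 0.0734, limma, which called 4.54% of genes). Leaving out the 12 libraries against a label changed the estimate to -0.61 (adjusted p = 0.193, limma). Leaving out the 5 libraries under 1 M reads changed it to -0.83 (adjusted p = 0.0276, limma), past the threshold. Of the 86 fits without 1 library each, 6 passed the threshold, with limma adjusted p between 0.0377 and 0.165. The result therefore lay at the threshold and on either side of it by choice of libraries.

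Whole reads gave the same order in internodes. Moneymaker internodes held SP at 0.726 RPM (reads per M library reads, over pooled libraries) in FR, with a 95% exact Poisson interval of 0.562 to 0.924, and 2.37 in WL (1.95 to 2.84). M82 internodes held 1.73 in FR (1.38 to 2.15) and 2.33 in WL (1.96 to 2.75). These intervals cover counting error only, without the larger spread between libraries: 59 of the 84 M82 FR reads and 61 of the 139 M82 WL reads came from 1 library each. edgeR on the reads put the FR effect at -1.54 in Moneymaker and -2.01 in M82 internodes (log2 fold, adjusted p = 0.305 and 0.561). The M82 fold includes the FR group at 24 h, which held 0 SP reads, so its size cannot be relied on.

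SP is active in axillary meristems, so markers of buds were read beside it. The 4 bud and axillary meristem markers were listed but all averaged under 1. Their summed value was 0 in 9 of 30 FR internode libraries and in 4 of 28 WL internode libraries, with medians of 0.959 and 1.81 and maxima of 12.04 and 11.80. Over all 86 libraries their sum and SP had a Pearson correlation of 0.41 on the log2(value + 1) scale, as a description of libraries that share depth. Of 8 leaf and chloroplast markers, which green stem also expresses, 0 passed in either cultivar's internodes between lights (1.59% and 0.715% of all genes called), and Solyc02g070980 rose in FR over both cultivars' internodes by 0.47 ± 0.15 (adjusted p = 0.0491, limma, 4.54% called). Their sum in internodes spanned 3860 to 13920 in FR and 5140 to 10428 in WL, with a correlation with SP of -0.161. The part of bud tissue in the SP difference was not tested.

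In pith SP showed no common direction between lights. In Moneymaker pith at 30 h WL libraries held 0.381, 5.42 and 1.01, and FR libraries 0.625, 0, 0 and 1.64. At 48 h all 3 WL libraries were at 0 and the FR libraries at 0.0881, 0, 0.794 and 0. The FR minus WL estimate for Moneymaker pith was -0.31 ± 0.47 (adjusted p = 0.942, limma, which called 0.504% of genes there), and edgeR and DESeq2 on reads gave it the other sign. Their folds include the WL group at 48 h, which held 0 reads, so they cannot be relied on.

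In M82 pith at 30 h the FR libraries held SP at 5.02 and 3.34, above all 4 WL libraries at 0, 0, 1.60 and 0. At 48 h the order was not kept: WL gave 8.32, 0, 0, 0 and 0, and FR gave 0, 0.198 and 0. The WL library at 8.32 was nearer to Moneymaker than to M82 in the label check. At 30 h the FR minus WL difference was 2.01 ± 0.76 (unadjusted p = 0.00991, adjusted p = 0.320, limma, 0.205% of genes called), and over both times it was 0.73 ± 0.50 (adjusted p = 0.399, limma, 3.71% called), a value to which edgeR and DESeq2 on reads gave the other sign, -0.25 and -0.19. The FR effect of Moneymaker minus that of M82 in pith was -1.04 ± 0.69 (adjusted p = 0.718, limma), and 0.86 and 0.38 by edgeR and DESeq2.

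No cultivar difference in SP was called in either tissue. Over all internode libraries the SP median was 0.629 in Moneymaker (0 to 10.3, n = 32) and 0.880 in M82 (0 to 5.80, n = 26). Moneymaker minus M82 was 0.04 ± 0.24 in internodes, with an interval of -0.44 to 0.53, adjusted p = 0.985 (limma, 0.977% of genes called). In pith it was -0.32 ± 0.34, interval -1.004 to 0.364, adjusted p = 0.827 (limma, 0.993% called). Without the libraries against a label the estimates were 0.10 and -0.22. Cultivar differences in SP between the ends of these intervals could not be told from 0.

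Clock time was asked next, because the photoperiod pathway that feeds florigen genes runs through the circadian clock. Pooled SP reads depended on a few libraries. Internodes held SP at 2.56 RPM at 6 h (95% exact Poisson interval 2.19 to 2.97), 1.91 at 24 h (1.56 to 2.32), 1.41 at 30 h (1.11 to 1.77) and 0.756 at 48 h (0.571 to 0.981). Median values in internodes were 1.41 at 6 h, 0.629 at 24 h, 0.780 at 30 h and 0.509 at 48 h. At 6 h 120 of the 169 reads came from 2 M82 libraries, and at 24 h 36 of 104 came from 1 library. Without those 2 libraries the 6 h value was 1.29 RPM, and without that 1 the 24 h value was 1.34 RPM, so the order of 6, 24 and 30 h rested on them. The ranges of values of all 4 times overlapped. For 6 and 30 h minus 24 and 48 h, limma gave 0.21 ± 0.33 in Moneymaker (adjusted p = 0.833, 9.87% of genes called) and 0.15 ± 0.36 in M82 internodes (adjusted p = 0.935, 9.09% called).

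In pith SP was seen in 8 of 13 libraries at 30 h and in 4 of 15 at 48 h, with medians of 0.625 and 0. The 30 h minus 48 h difference was 0.83 ± 0.47 in Moneymaker pith (adjusted p = 0.345, limma, 7.32% called) and 0.98 ± 0.50 in M82 pith (adjusted p = 0.332, limma, 4.14% called). The exact two-sided permutation of times within lights gave p = 0.0571 with 7 against 7 Moneymaker libraries and p = 0.156 with 6 against 8 M82 libraries. Without the libraries against a label the M82 difference was 1.48 and its exact permutation p 0.0333, with 4 against 7 libraries. That fit left out the library at 8.32, and the limma adjusted p was 0.103. In M82 internodes the clock difference was larger in FR than in WL by 1.68 ± 0.72 (unadjusted p = 0.0221, adjusted p = 0.618, limma), and 1 of 19029 genes was called in this interaction (0.00526%).

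SP was seen in 40 of 58 internode and 12 of 28 pith libraries. At 30 and 48 h, pith minus internode was -0.51 ± 0.32 in Moneymaker (adjusted p = 0.620, limma, 1.12% of genes called) and 0.08 ± 0.34 in M82 (adjusted p = 0.987, limma, 2.73% called). Across the 12 comparisons limma, edgeR and DESeq2 each called SP in 0, with 2, 4 and 3 unadjusted p under 0.05. Since limma called 0.504% to 9.87% of all genes in them, a count of 0 for 1 gene says little.

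**Figure D2:**
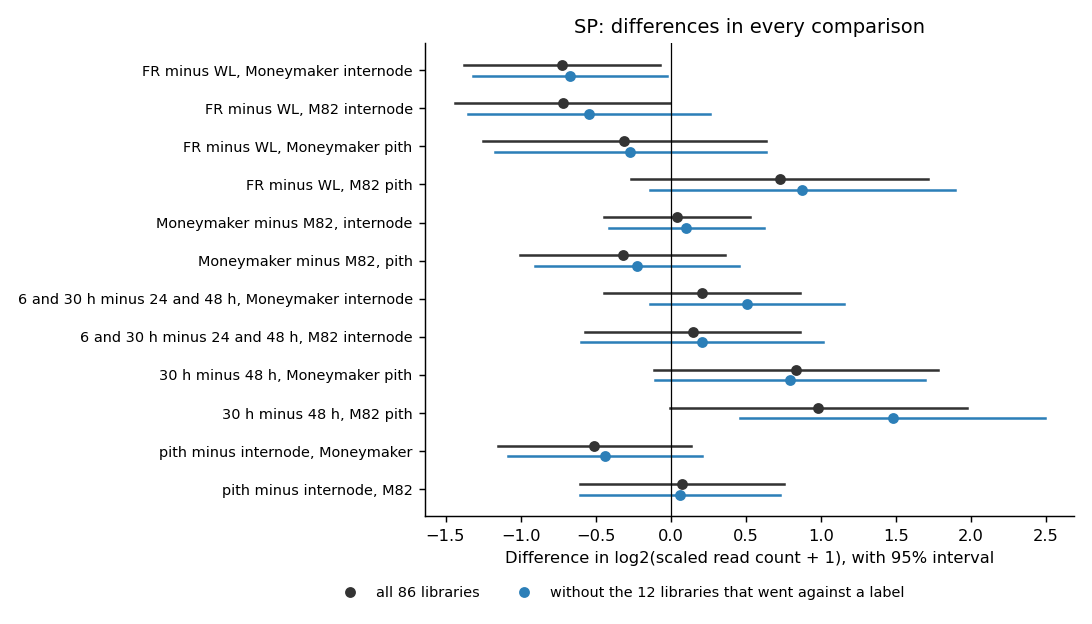
SP differences in the 12 comparisons on the log2(scaled read count + 1) scale (horizontal axis) with 95% intervals from the limma fit; black uses all 86 libraries and blue leaves out the 12 that went against a label. The internode differences of FR and WL lie at -0.72 in both cultivars, and with all libraries those 2 are the intervals that stay below 0.

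The genes whose group means followed SP most closely were Solyc07g008180 (Pearson r = 0.807) and Solyc06g072480 (r = 0.805), over the 24 group means and out of 19028 other genes tested. By Spearman rank over the same means the closest were Solyc06g072480 (0.827) and Solyc02g086480 (0.825), so the order depended on the measure. By single libraries the Pearson correlations of the 3 in this order were 0.579, 0.597 and 0.707 over 86 libraries. All 3 were themselves low, with mean values of 4.67, 2.40 and 1.16.

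SP9D, the other TFL1-like member, had its higher median in pith with the cultivars pooled, but not in Moneymaker alone. It was seen in 32 of 58 internode libraries with a median of 0.208 and in 17 of 28 pith libraries with a median of 0.550. By cultivar the medians were 0.42 in internodes and 0.31 in pith for Moneymaker, and 0 and 0.81 for M82. The internode libraries also cover 6 and 24 h, at which no pith was taken. In Moneymaker pith the FR libraries held SP9D at 0.938, 0, 3.59 and 1.09 at 30 h and at 0.969, 1.23, 2.65 and 0 at 48 h. The WL libraries held 0.381, 0 and 0 at 30 h and 0, 0 and 0.236 at 48 h. All 6 FR libraries with a read were above all 6 WL libraries, and the remaining 2 FR libraries were at 0. The value of 1.23 was 1 read in a library of 0.915 M reads. In reads this was 39 in the 8 FR libraries, 1.30 RPM (0.925 to 1.78, 95% exact Poisson), and 2 in the 6 WL libraries, 0.0894 RPM (0.0108 to 0.323).

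SP9D averaged under the value of 1 asked for in the main fit, so its tests come from the same limma fit without that filter, over all 23050 genes. FR minus WL in Moneymaker pith was 0.90 ± 0.34 (interval 0.21 to 1.58, unadjusted p = 0.0108, adjusted p = 0.416, limma, 0.399% of genes called). The exact two-sided permutation of light within times gave p = 0.0286 with 8 against 6 libraries, and 0.0443 without the FR library against its cultivar label. For the 4 members 32 such permutations were run on all libraries, of which 3 had p under 0.05, and the same 32 without the libraries against a label, of which 4 did. They were not adjusted for their number, so each such p is a description.

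In M82 pith SP9D did not follow light in this way. At 30 h the WL libraries held 0, 0.719, 2.80 and 3.19, and the FR libraries 2.51 and 0. At 48 h the WL libraries held 0, 1.328, 0, 1.17 and 0.909, and the FR libraries 0.101, 1.39 and 0. FR minus WL was -0.24 ± 0.36 in M82 pith (adjusted p = 0.766, limma, 2.70% called). The FR effect of Moneymaker exceeded that of M82 in pith by 1.14 ± 0.50 (unadjusted p = 0.0252, adjusted p = 0.685, limma), so a difference between the cultivars was not established. Without the libraries against a label, FR minus WL in M82 pith was -0.72 ± 0.37 and the excess of Moneymaker over M82 was 1.59 ± 0.50. The exact two-sided permutation of light in M82 pith then gave p = 0.157, with 5 against 6 libraries. The size of both differences thus depended on these libraries.

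**Figure D3:**
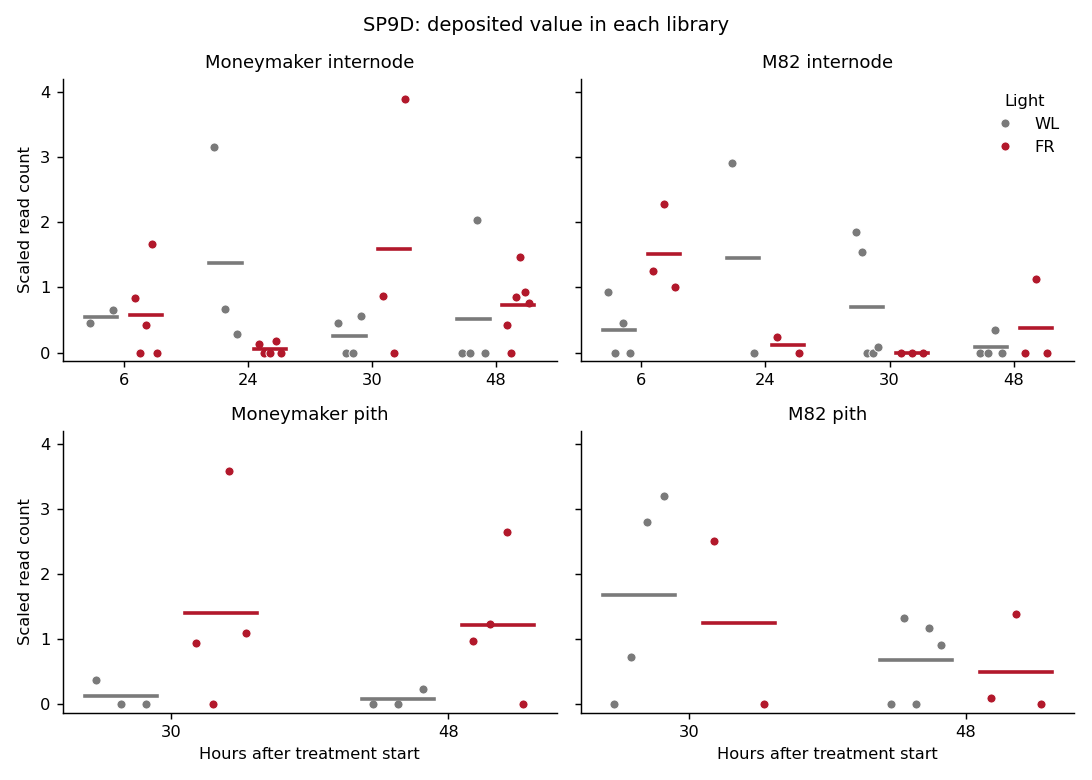
Deposited SP9D value, a scaled read count (vertical axis), in each library by hours after treatment start, for each cultivar and tissue; points are libraries, horizontal lines are group means, grey is WL and red is FR. In Moneymaker pith the WL libraries stay at or under 0.381 and the FR libraries reach 3.59.

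In internodes no light difference in SP9D was called. Moneymaker internodes had a median of 0.423 in FR (0 to 3.88, n = 19) and 0.449 in WL (0 to 3.15, n = 13). M82 internodes had a median of 0 in both lights, with maxima of 2.27 in FR and 2.90 in WL. The limma differences were 0.02 ± 0.24 and -0.06 ± 0.26 (adjusted p = 0.987 and 0.994, with 1.26% and 0.616% of genes called). Moneymaker minus M82 was 0.12 ± 0.18 in internodes and -0.23 ± 0.25 in pith (limma adjusted p = 0.909 and 0.855, with 0.928% and 0.881% of genes called).

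Pith minus internode for SP9D was 0.54 ± 0.25 in M82 (unadjusted p = 0.0322, adjusted p = 0.384, limma, 2.23% called) and -0.05 ± 0.23 in Moneymaker (adjusted p = 0.976, limma, 0.920% called). At 30 and 48 h the M82 libraries held 41 SP9D reads in 13 pith libraries and 19 in 15 internode libraries, 1.20 RPM (0.859 to 1.62) against 0.350 (0.211 to 0.547). Without the 12 libraries against a label it was 0.84 (limma adjusted p = 0.0533), and edgeR on the reads then passed the threshold at a log2 fold of 3.10 (adjusted p = 0.0404). With all libraries edgeR gave 2.50 (adjusted p = 0.134). The M82 FR internode group at 30 h held 0 SP9D reads, so the size of these edgeR folds cannot be relied on. With all libraries no clock difference in SP9D stood out. Over the 4 clock comparisons the limma estimates ran from 0.05 ± 0.34 in Moneymaker pith to 0.49 ± 0.36 in M82 pith (3.37% of genes called there). Without the libraries against a label the M82 pith estimate was 0.81 ± 0.37, with an exact two-sided permutation p of 0.127.

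SFT, the florigen, was barely seen in the stem. It had 36 reads in 85 libraries, and 1 library held 7 of them. In internodes at 6 h it had 0 reads in all 14 libraries, which together held 66.1 M reads, allowing up to 0.0454 RPM. At 24 h it had 5 reads in 12 internode libraries, at 30 h 3 reads in 15 and at 48 h 13 reads in 17. In pith it had 7 reads at 30 h, 6 of them in 1 Moneymaker FR library at 1.79, and 8 reads at 48 h.

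By clock time, SFT had a value in 3 of 29 internode libraries at 6 and 30 h and in 9 of 29 at 24 and 48 h. These were 0.0253 RPM (95% exact Poisson interval 0.00522 to 0.0739) and 0.140 (0.0830 to 0.221). In Moneymaker internodes the values above 0 were 0.129, 0.604 and 0.170 in FR and 0.112 in WL at 24 h, 0.0768 in WL at 30 h, and 0.424 and 0.422 in FR and 0.509 and 1.06 in WL at 48 h. Of these 9 libraries, 8 were at the clock time of the start. The clock difference of 6 and 30 h minus 24 and 48 h was -0.20 ± 0.12 (unadjusted p = 0.0842, adjusted p = 0.381, limma without the filter, 8.03% called). The exact two-sided permutation within lights gave p = 0.0173 with 14 against 18 libraries and 0.0105 without the libraries against a label, and edgeR on reads a log2 fold of -2.24 (adjusted p = 0.131).

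M82 internodes showed no such order for SFT. The values above 0 were 0.772 and 0.572 at 30 h and 0.568 at 48 h, all in WL. The clock difference was 0.03 ± 0.13 (adjusted p = 0.972, limma, 7.33% called). None of the 11 M82 FR internode libraries held an SFT read, in 48.5 M reads, which allows up to 0.0619 RPM. The 15 M82 WL internode libraries held 4 reads, or 0.0671 RPM, so a difference between lights was not detectable at this depth. FR minus WL for SFT was -0.02 ± 0.12 in Moneymaker and -0.11 ± 0.13 in M82 internodes (limma adjusted p = 0.959 and 0.940).

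**Figure D4:**
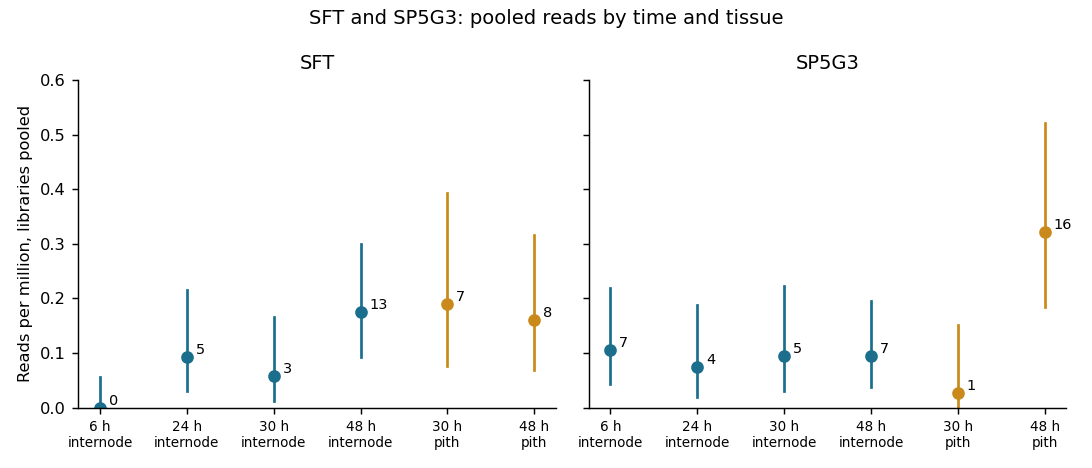
SFT (left) and SP5G3 (right) in RPM with the libraries of each time and tissue pooled (vertical axis); bars are 95% exact Poisson intervals for counting error only, numbers are the reads, blue is internode and orange is pith. SFT has 0 reads at 6 h, and 16 of the 40 SP5G3 reads lie in pith at 48 h.

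SP5G3, the FT-like member, had 15 of its 40 reads in 1 group. In Moneymaker FR pith at 48 h the libraries held 1, 0, 5 and 9 reads, at values of 0.0881, 0, 1.32 and 2.09. The 6 Moneymaker WL pith libraries held 0 reads in 22.4 M, which allows up to 0.134 RPM, and the Moneymaker FR pith libraries at 30 h held 0. Pooled over both times, Moneymaker FR pith held 0.500 RPM (0.280 to 0.825, 95% exact Poisson). This point estimate was 3.73 times that limit, and the lower end of its interval lay nearer to it. The exact Poisson upper limit for the WL libraries was 0.165 RPM. Such intervals cover counting error only. The FR library at 0 at 48 h had 0.915 M reads and stood nearer to M82 than to Moneymaker in the label check.

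FR minus WL for SP5G3 in Moneymaker pith was 0.37 ± 0.15 (unadjusted p = 0.0139, adjusted p = 0.462, limma without the filter), and 30 h minus 48 h was -0.37 ± 0.15 (adjusted p = 0.142, limma, 5.91% called). At 48 h alone FR minus WL was 0.74 ± 0.21 (adjusted p = 0.304, limma, 0.0651% called). Without the libraries against a label, which takes out the FR library at 0, the 48 h difference was 0.99 ± 0.22 (adjusted p = 0.0287, limma) and the time difference -0.49 ± 0.15 (adjusted p = 0.0295, limma). edgeR on reads without the same libraries gave 2.62 for light over both times and -2.62 for time, each with an adjusted p of 1.00, in a fit where whole groups were at 0. The exact two-sided permutations over all libraries gave p = 0.257 for light and 0.143 for time, with 8 against 6 and 7 against 7 libraries. The limma calls rested on 15 reads in 3 libraries. Their errors use 1 spread shared by 24 groups, of which 14 held SP5G3 at 0 in every library. The FR group at 48 h had a standard deviation of 0.80 on the log2(value + 1) scale over its 4 libraries. The limma errors and adjusted p therefore do not measure the spread between these libraries.

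Elsewhere SP5G3 stayed at 1 to 5 reads a library where it was seen. Internodes held SP5G3 at 0.106 RPM at 6 h, 0.0736 at 24 h, 0.0951 at 30 h and 0.0945 at 48 h, with overlapping counting intervals. By light, Moneymaker internodes held 0.0880 RPM in FR and 0.0831 in WL, and M82 internodes 0.124 and 0.0839. How reads shared between close relatives such as SP5G2 and SP5G3 were counted is not stated in the labels or headers, so their few reads may be split between copies. Over SP9D, SFT and SP5G3 together, limma without the filter called 0 of 36 tests, with 4 unadjusted p under 0.05. In these comparisons it called 0.399% to 8.03% of all genes, so a count of 0 says little about the members. For the same tests edgeR without a filter called 0 with 3, and DESeq2 called 0 with 2.

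The genes around the family were read from lists of identifiers for photoperiod and for meristem identity; the files do not pair these identifiers with names, so they are given by identifier. The photoperiod list was drawn up for the clock-linked proteins, transcription factors and light receptors that act upstream of florigen genes. Of its 16 identifiers, 14 were listed and tested. In M82 internodes 2 rose and 7 fell at 6 and 30 h against 24 and 48 h, where 9.09% of all genes were called, and in Moneymaker internodes 2 rose and 6 fell (9.87% of all genes). In pith at 30 h against 48 h, 2 rose and 5 fell in Moneymaker (7.32% of all genes) and 2 rose and 4 fell in M82 (4.14%). The list's median differences were -0.45, -0.32, -0.39 and -0.37 in that order, beside medians of all tested genes between -0.025 and -0.0037.

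The largest of these by p in M82 internodes were Solyc05g007880, which fell by 4.86 ± 0.41 on the log2(value + 1) scale, Solyc02g067230, which fell by 2.90 ± 0.28, and Solyc04g071990, which rose by 2.75 ± 0.25 (adjusted p of 1.07e-14, 4.37e-13 and 9.28e-14, limma). In Moneymaker internodes the same 3 differed by -4.46 ± 0.37, -3.08 ± 0.26 and 2.63 ± 0.23. These 3 had the smallest p in a list chosen with earlier results of these data known, so their sizes are a description. SP, the member that could be tested in the main fit, had an interval of -0.44 to 0.86 in Moneymaker internodes. Its values lay too near 0 for falls of such size, so SP is not set against these genes.

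Between lights, 1 gene of the photoperiod list rose in FR in internodes of both cultivars, Solyc05g053410, by 1.14 ± 0.17 in Moneymaker (adjusted p = 2.58e-06) and 0.94 ± 0.19 in M82 (adjusted p = 0.00148, limma). In all genes 1.59% and 0.715% were called in these 2 comparisons. In M82 pith 2 of 14 rose in FR (3.71% of all genes called), and in Moneymaker pith 0 passed (0.504%). Between cultivars 0 of the 14 passed in either tissue, where 0.977% and 0.993% of all genes were called, so counts of 0 among 14 say little about the list.

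The meristem list was drawn up for florigen partners and meristem identity factors. Of its 11 identifiers 9 were listed and 6 averaged at least 1. Averaged over times, 0 of 6 passed between lights in internodes or pith of either cultivar, where 0.504% to 3.71% of all genes were called, and 0 passed between cultivars (0.977% and 0.993% of all genes). Solyc03g118160 rose in FR in M82 pith at 48 h alone, by 2.07 ± 0.55 (adjusted p = 0.0425, limma, 1.1% of all genes called), and over both cultivars' pith, by 1.04 ± 0.30 (adjusted p = 0.0271, limma, 4.57% called). By time, Solyc02g083520 fell by 1.13 ± 0.33 in M82 internodes at 6 and 30 h (adjusted p = 0.0160, limma, 9.09% of all genes called). In pith at 30 h against 48 h, Solyc03g114830 fell by 1.335 ± 0.44 in Moneymaker (adjusted p = 0.0473, limma, 7.32% called). Solyc11g010570 rose there by 0.88 ± 0.26 in M82 (adjusted p = 0.0378, limma, 4.14% called). Each was 1 call among 6 genes, which says little about the list at these shares. The list's medians between lights in internodes, 0.11 in Moneymaker and 0.05 in M82, lay near those of all genes, 0.01 and -0.01. In pith they were 0.09 in Moneymaker and 0.26 in M82, beside -0.04 and 0.01 over all genes.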

How the data were processed

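Libraries were random-primed from poly(A) RNA, per the labels' protocols. The submitters' processing notes name STAR and featureCounts among their tools. Versions, genome build and how multi-mapping reads were handled were not stated in the labels or headers. The authors deposited 1 table of gene values, a signal of read counts scaled by 1 factor per library. Values were whole multiples of 1 step in all 86 libraries (100% whole within 0.02 reads, genes under 2000 reads). Reads were taken as recovered in 85 libraries. The library M82 FR 48 h pith replicate 1 was kept out of tests on reads, because its step of 0.101 was too near a round value to be taken as 1 read.

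The main test was limma 3.58.1 (trend, robust; R 4.3.3) on log2(value + 1) over 24 group means, on 19029 genes with a mean of at least 1, since the table holds scaled and not plain counts; Benjamini-Hochberg adjusted p under 0.05 was called. Differences understate changes of low genes. The limma error of each gene comes from 1 spread shared by the 24 groups, and groups with every library at 0 lower it. edgeR 4.0.16 and DESeq2 1.42.0 on recovered reads were alternatives. The limma step was checked on simulated data. The limit for 0 reads is 3 reads over the pooled depth, and 95% intervals are exact Poisson.

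The members and lists were chosen with earlier results of these data known. The 4 members with values were described, with the 2 genes most alike SP and up to 3 called genes per list by smallest p. Symbols follow the list of identifiers; the RefSeq table (SLM_r2.1) matched 0 identifiers directly. Replicate numbers mark plants grown in the same batch, per the labels; deviations of same-numbered libraries had a mean correlation of 0.0499 over 26 pairs (lowest -0.281), against -0.00859 over 125 other pairs. Alternatives were other pseudocounts, scaling, filters, tools, a replicate block, leaving out libraries and the compared groups alone.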

Additional observations from a re-analysis of the deposited data

Results flagged for a closer look

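Within groups of 4 to 10 libraries, 1 library stood apart from the others of its group in 15 of 40 member-by-group checks. In most of them the other libraries had 0 reads, and then the check flags any library that holds a read. Its rate of about 1 in 20 groups by chance is meant for normally spread values and does not apply here. The count of 15 is therefore not read as an excess. For SP these were M82 WL pith at 30 h replicate 3 at 1.60, M82 WL pith at 48 h replicate 1 at 8.32 and Moneymaker FR pith at 48 h replicate 4 at 0.794. For SP9D they were M82 WL internode at 48 h replicate 3 at 0.340 and Moneymaker WL internode at 48 h replicate 7 at 2.04. For SFT they were M82 WL internode at 48 h replicate 4 at 0.568, M82 WL pith at 30 h replicate 3 at 0.200, Moneymaker FR internode at 24 h replicate 4 at 0.604, Moneymaker WL internode at 30 h replicate 2 at 0.0768, and Moneymaker FR pith replicate 4 at 1.79 at 30 h and 0.529 at 48 h. For SP5G3 they were M82 WL internode at 30 h replicate 6 at 0.277, M82 WL pith at 30 h replicate 3 at 0.200, Moneymaker FR internode at 6 h replicate 5 at 0.119 and Moneymaker WL internode at 30 h replicate 2 at 0.154. M82 WL pith at 30 h replicate 3 was flagged for SP, SFT and SP5G3, with 8, 1 and 1 reads. It was the deepest library of its group, at 4.63 M reads.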

How the results depend on the processing

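No SP comparison was called in the main fit, and of 1344 refits of its 14 main values, 1311 kept the direction and the side of the threshold, 7 passed it and 26 changed sign. The 7 were the FR effect over both cultivars' internodes without the 5 libraries under 1 M reads (-0.83) and in 6 of 86 fits without 1 library (-0.80 to -0.62 over the 86). Of 600 refits of its 6 interactions and 3 single times, 47 changed sign, which makes 73 in all. edgeR and DESeq2 gave FR minus WL as 0.62 and 0.18 in Moneymaker pith and as -0.25 and -0.19 in M82 pith. DESeq2 gave -0.0044 and the replicate block -0.076 for both cultivars' pith. The block also gave -0.096 for cultivar in internodes and -0.086 for M82 pith minus internode, where pseudocount 0.25 gave -0.077 and edgeR -0.012. The block changed no call (both cultivars' internodes, adjusted p = 0.0688, limma). The FR effect of Moneymaker minus M82 in internodes was 0.084 with pseudocount 0.25, 0.47 with edgeR and 0.12 with DESeq2, and in pith 0.86 and 0.38 with these tools. The cultivar difference in clock effect was -0.96 with edgeR and -0.61 with DESeq2, and the difference in clock effect between lights in Moneymaker internodes was -0.23 without libraries against a label. Leaving out 1 library at a time gave -0.54 to 0.016 for FR in Moneymaker pith, -0.062 to 0.12 for cultivar in internodes, -0.0097 to 0.31 for clock in M82 internodes, -0.085 to 0.23 for M82 pith minus internode, -0.17 to 0.20 for the cultivar difference in FR effect in internodes, -0.10 to 0.27 for that in clock effect and -0.034 to 0.68 for the clock difference between lights in Moneymaker internodes. TMM scaling moved the median of all genes by at most 0.0233. SFT was at 0 in every library of 11 of 24 groups, SP5G3 in 14, SP in 2 and SP9D in 1. For SP these were M82 FR internodes at 24 h and Moneymaker WL pith at 48 h, and for SP9D M82 FR internodes at 30 h. The edgeR and DESeq2 fold changes of comparisons that hold such groups cannot be relied on. The cause of the changes was not tested. Depth limits every member: most libraries hold few or no reads of each.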
